A study of Mus musculus with 2 samples.

Results

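Interferon gamma, its receptor and the first steps of its signalling were followed as a set of 7 genes out of the 31053 in the count matrix. The members were taken by gene symbol: the ligand gene Ifng, the receptor chain genes Ifngr1 and Ifngr2, the kinase genes Jak1 and Jak2, the induced transcription factor gene Irf1 and the feedback inhibitor gene Socs1. Each symbol was found once. The cells came from tumours of B16F10, a transplantable mouse melanoma line, grown for 2 weeks in mice of 2 genotypes. One was the myeloid-specific c-Rel knockout, of genotype LysM-cre x RelloxP/loxP, and the other was WT, of genotype LysM-cre x Rel+/+, so that both carried LysM-cre. LysM is the lysozyme M gene of monocytes, macrophages and neutrophils, and Cre made under it removes the loxP-flanked Rel gene, which encodes the transcription factor c-Rel, in those cells. Per the labels, viable cells with CD45, the surface marker of white blood cells, were sorted from 5 pooled tumours per genotype and made into 1 droplet library each, aiming at 10000 reads per cell. The age and sex of the mice were not given in the sources used here.

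The deposited matrix joins the 2 libraries and marks each barcode with the ending 1 or 2, and no source used here says which ending belongs to which genotype. The libraries are therefore given as library 1 and library 2, and no comparison between genotypes was made. With 1 library per genotype no spread between animals could be measured and no test was possible. Every interval below is a 95% interval for counting error only.

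In background terms, interferon gamma is a cytokine made mainly by activated T cells and NK cells. It binds a receptor made of a ligand-binding chain (IFNGR1) and a signalling chain (IFNGR2), which carry the kinases JAK1 and JAK2. Their signal turns on early targets such as Irf1 through gamma-activated sites in the promoters, and IRF1 then turns on later targets. SOCS1 is induced by the same signal and blocks the kinases. In melanoma and other tumours the pathway is known for raising antigen presentation, PD-L1 and the chemokines that draw T cells.

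Libraries 1 and 2 held 7688 and 10564 barcodes with 49129318 and 73507228 UMIs (counted molecules), of which 5198 and 7999 barcodes were retained. The 2 libraries shared 3609 barcode sequences, and a barcode was left out where its sequence had over 10 times its UMIs in the other library (1991 and 1529 barcodes). Classes were made by marker genes. The libraries went against the CD45 sort, since 2206 and 5300 retained barcodes (42.4% and 66.3%) were melanoma-gated, with Ptprc, the gene of CD45, at 4.42 and 3.32 CPM (counts per 1000000 UMIs of the class), against 857 and 528 CPM in monocyte-gated barcodes. The immune gates held 2818 and 2387 barcodes. All defining markers of the T cell, NK, monocyte, macrophage, neutrophil and both dendritic lists were found in their own class in both libraries. The B-gated class of library 2 (4 barcodes) held 5 of 7 markers, and its gamma delta T-gated class (4 barcodes) held 1 of 5. The fibroblast markers Col1a1, Col1a2, Col3a1 and Dcn were at 0 in CD8 T-, NK-, monocyte- and macrophage-gated barcodes. Melanoma RNA in these 4 classes stood at 2.22% to 3.19% of its level in melanoma-gated barcodes in library 1 and at 5.94% to 7.02% in library 2. Rel, the deleted gene, stood at 352 and 97.8 CPM in monocyte-gated barcodes of libraries 1 and 2, at 130 and 29.9 CPM in macrophage-gated and at 146 and 149 CPM in T-gated barcodes. These are 3′ tags, which need not lie in the deleted part, and they were not used to name a library.

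The positions of the members are given in the mm10 build. Ifng spans chr10:118441046-118445892 on the plus strand with 4 exons, and Ifngr1 spans chr10:19591949-19610229, also on the plus strand, with 7 exons. Ifngr2 (chr16:91547072-91565623, plus strand, 7 exons) and Socs1 (chr16:10782240-10785536, minus strand, 2 exons) share chromosome 16. Jak1 lies at chr4:101152367-101265282 on the minus strand with 25 exons, Jak2 at chr19:29251828-29313080 on the plus strand with 24 exons, and Irf1 at chr11:53770014-53778374 on the plus strand with 10 exons. All 7 are protein-coding genes.

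The promoters of Irf1 and Socs1 are shown because both genes had higher pooled levels in melanoma barcodes with interferon-induced RNA, described below, Socs1 on few UMIs. Each runs from 250 bases before to 50 bases after the gene's start, 5′ to 3′ on the gene's strand (RefSeq, GRCm38.p6). Both strands were searched for a gamma-activated site, TTCNNNGAA, and for an interferon response element, here GAAANNGAAA, where N is any base. Capitals mark the matches. The Irf1 window is chr11:53769764-53770063 on the plus strand, with a gamma-activated site 90 bases before the start, and the Socs1 window is chr16:10785487-10785786 on the minus strand, with 2 overlapping response elements from 83 bases before the start.
Irf1: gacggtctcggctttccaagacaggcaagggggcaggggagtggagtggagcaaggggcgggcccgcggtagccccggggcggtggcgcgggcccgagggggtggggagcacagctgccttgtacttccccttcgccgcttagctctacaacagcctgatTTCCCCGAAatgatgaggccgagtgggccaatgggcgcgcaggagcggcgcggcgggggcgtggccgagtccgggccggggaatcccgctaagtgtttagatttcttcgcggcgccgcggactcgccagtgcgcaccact
Socs1: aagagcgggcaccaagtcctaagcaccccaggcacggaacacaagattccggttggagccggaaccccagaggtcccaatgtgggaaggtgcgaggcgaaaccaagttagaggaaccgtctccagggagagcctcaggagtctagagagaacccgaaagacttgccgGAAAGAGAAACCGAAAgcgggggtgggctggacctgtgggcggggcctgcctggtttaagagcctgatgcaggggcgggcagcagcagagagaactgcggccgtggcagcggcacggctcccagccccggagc
The gamma-activated letters were found in 2726 of 32851 promoters of the same length (8.30%) and the response element in 1131 (3.44%). Of the other members, the Ifng window held 1 gamma-activated match, TTCAGAGAA, 249 bases before the start, and those of Ifngr1, Ifngr2, Jak1 and Jak2 held neither motif. A second Irf1 promoter in the table held neither. A match describes letters only.

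Ifng RNA was found mainly in CD8 T-gated barcodes in both libraries. CD8 T cells are the cytotoxic T cells that kill target cells and secrete interferon gamma on antigen contact. Of 178 and 235 Ifng UMIs in retained barcodes of libraries 1 and 2, 117 and 190 lay in CD8 T-gated barcodes, which is 65.7% (58.3% to 72.7%) and 80.9% (75.2% to 85.7%). These made up 6.54% and 2.90% of retained barcodes. The level of Ifng in the class was 129 CPM (107 to 155) in library 1 and 429 CPM (370 to 494) in library 2. T-gated barcodes with no subset marker UMI, or with those of several subsets, are called T-gated without a subset marker here and stood lower at 32.2 CPM (15.4 to 59.2) and 59.7 CPM (27.3 to 113).

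NK cells, innate lymphocytes that also make interferon gamma, held few Ifng UMIs here. NK-gated barcodes had 6 UMIs over 178 barcodes of library 1 (33.1 CPM, 12.1 to 72.0) and 1 UMI over 36 barcodes of library 2 (32.2 CPM, 0.816 to 180). The level in NK-gated barcodes could not be told from that in T-gated barcodes without a subset marker in either library. CD8 T-gated over NK-gated, the Ifng ratio was 3.90 (1.74 to 10.8) and 13.3 (2.36 to 528), the second resting on the 1 NK UMI. Throughout, a gene was called when its ratio between a pair of classes was at least 2 the same way in each library, provided the pair together held 50 or more UMIs of it per library. Ifng was called higher in CD8 T-gated over NK-gated barcodes, where 6.88% of 1264 genes were called higher. With only barcodes of at least 1000 UMIs, 0 members were called higher, and the share over all genes was not counted there.

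No Ifng UMI was seen in regulatory T-, CD4 T-, gamma delta T-, B-, plasmacytoid dendritic-, conventional dendritic- or monocyte-gated barcodes of either library. The depth behind these zeros differed widely. The 561 and 567 monocyte-gated barcodes allow at most 2.73 and 4.66 CPM (3 UMIs of the class total), whereas the 23 and 9 CD4 T-gated barcodes allow up to 105 and 234 CPM. With the CD4 T zero set at 3 UMIs, the Ifng ratio of CD8 T-gated over CD4 T-gated barcodes was 1.23 and 1.83. These values are below the call, where 2.47% of 1217 genes were called higher and 1.64% lower. The lower limits of the counting interval were 0.987 in library 1 and 1.48 in library 2. A level in CD4 T cells near that of CD8 T cells in library 1 was therefore not detectable as different at this depth. The other members measured there were Ifngr1, at ratios of 0.477 and 0.537, and Jak1, at 0.587 and 2.92, and neither was called. No member reached 50 UMIs in both libraries in regulatory T-gated over CD4 T-gated barcodes (Ifngr1 had 58 and 27 UMIs in library 1 but 9 and 9 in library 2), where 1.1% of 91 genes were called higher. With the monocyte zero set at 3 UMIs, the Ifng ratio of all T-gated over monocyte-gated barcodes was 34.2 and 68.5. The lower limits of its counting interval were 27.4 and 55.2. Ifng was called higher in this pair, where 10.6% of 3256 genes were called higher. Macrophage-gated barcodes had 1 and 4 Ifng UMIs (0.484 and 2.14 CPM), neutrophil-gated ones 0 and 1, and melanoma-gated ones 3 and 16 (0.0758 and 0.249 CPM).

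**Figure D1:**
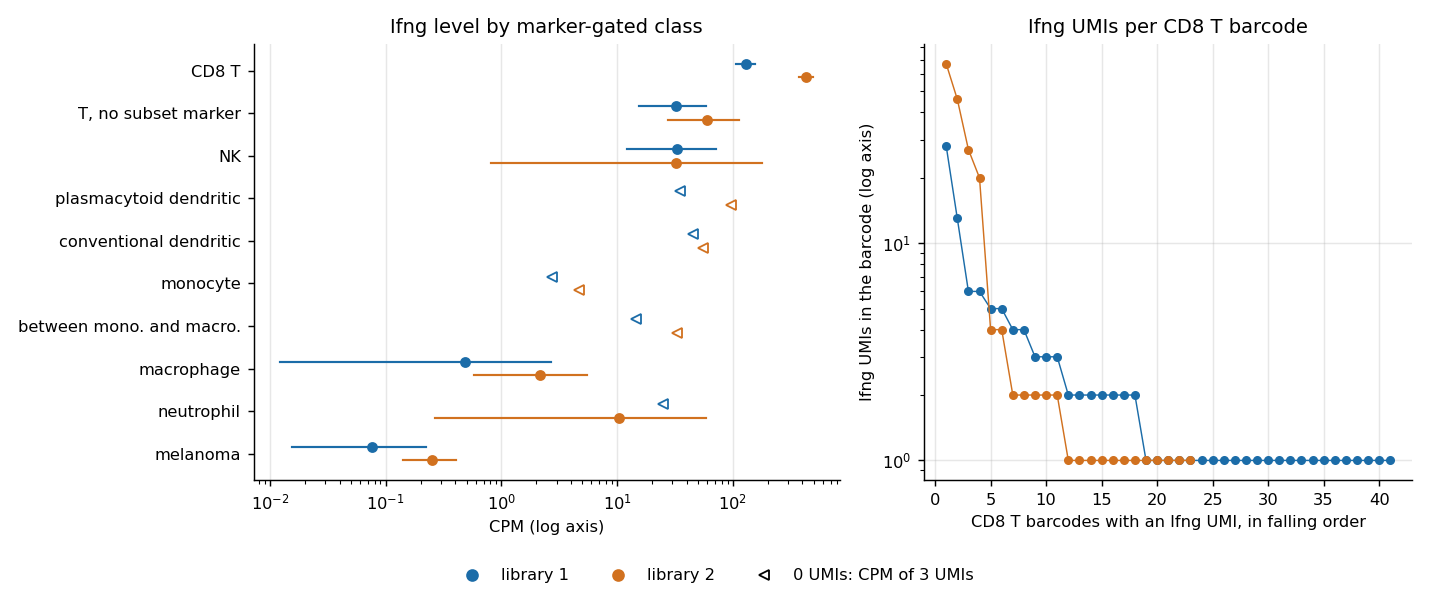
Left, Ifng level (CPM, log axis) in 10 marker-gated classes of library 1 (blue) and library 2 (orange), with 95% counting intervals and open triangles at the CPM of 3 UMIs where none was seen. Right, Ifng UMIs in each CD8 T-gated barcode with at least 1, in falling order. CD8 T-gated barcodes stand highest at 129 and 429 CPM, and the highest single barcodes hold 28 and 67 UMIs.

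Within the CD8 T-gated class the Ifng molecules were concentrated in few barcodes. An Ifng UMI was seen in 41 of 340 barcodes of library 1 (12.1%, 8.794% to 16.002%) and in 23 of 232 of library 2 (9.91%, 6.39% to 14.5%), and the median among these was 1 UMI. One barcode held 28 of the 117 UMIs in library 1 and one held 67 of the 190 in library 2, and the 10 highest barcodes held 65.8% and 92.6%. After each barcode was thinned to 1000 UMIs, leaving out 76 and 65 shallower ones, 7.20% (19 of 264) and 6.59% (11 of 167) still had an Ifng UMI. In melanoma-gated barcodes, which should lack the gene, 0 of 2174, which allows a share of up to 0.138%, and 2 of 5253 (0.0381%) had one after the same thinning, against 3 of 2206 and 15 of 5300 before it. The median depths before thinning were 1694 and 1460.5 UMIs in CD8 T-gated and 17944 and 11786.5 UMIs in melanoma-gated barcodes. The CD8 T share therefore stood well above that of melanoma-gated barcodes, both before and after thinning. Thinning removed more UMIs from the deeper melanoma-gated barcodes, so their thinned share can understate the background.

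The Ifng UMIs lay with those of cytotoxic granule genes. CD8 T-gated barcodes with a UMI of Gzmb or Prf1, the granzyme B and perforin genes, held 105 and 186 of the class's Ifng UMIs at 160 CPM (131 to 194) in 175 barcodes and 645 CPM (555 to 744) in 117 barcodes. The other 165 and 115 barcodes of the class, pooled after seeing the data, held 12 and 4 Ifng UMIs at 47.9 CPM (24.8 to 83.7) and 25.8 CPM (7.04 to 66.2). The depths differed, with medians of 2701 and 2044 UMIs in barcodes with a granule gene and 1125 and 1068 UMIs in the others. At 1000 UMIs, 18 of 162 (11.1%, 6.72% to 17.0%) and 9 of 105 (8.57%, 3.99% to 15.6%) barcodes with a granule gene had an Ifng UMI, against 1 of 102 (0.980%, 0.0248% to 5.34%) and 2 of 62 (3.23%, 0.393% to 11.2%) of the others. These intervals lay apart in library 1 and overlapped in library 2. Ifngr1 stood at 370 and 361 CPM in barcodes with a granule gene and at 655 (559 to 763) and 407 CPM (313 to 521) in the others, and the intervals lay apart in library 1 only.

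The genes whose levels over classes were most like those of Ifng were Xcl1, Lag3, Rgs16, Nrgn and Gzmb, with Pearson r of 0.96, 0.95, 0.95, 0.95 and 0.94 on log2(CPM + 10) over 14 points (7 classes in 2 libraries) among 10643 genes. The 7 classes were CD8 T, T without a subset marker, monocyte, macrophage, phagocytes between monocyte and macrophage, neutrophil and melanoma. Each had at least 50 barcodes per library. NK-, B-, dendritic- and the other T-gated barcodes did not enter r, so likeness in those classes was not measured. Points of 1 library share its depth and free RNA, and r is a description. Xcl1 encodes a chemokine for dendritic cells that carry XCR1, and Lag3 an inhibitory receptor of activated T cells. In CD8 T-gated barcodes Xcl1 stood at 176 and 156 CPM and Lag3 at 139 and 115 CPM in libraries 1 and 2. Neither gene was lower in library 1 than in library 2 there, as Ifng was.

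The ligand-binding receptor chain gene Ifngr1 was highest in NK-gated barcodes and low in melanoma. In NK-gated barcodes of libraries 1 and 2 there were 1714 (1529 to 1916) and 1322 CPM (948 to 1793). Next came T-gated barcodes without a subset marker at 1075 and 563 CPM and CD8 T-gated ones at 449 (406 to 494) and 377 CPM (322 to 438). Monocyte-gated barcodes followed at 390 (354 to 428) and 287 CPM (247 to 332) and macrophage-gated ones at 121 (106 to 137) and 79.6 CPM (67.3 to 93.4). These 5 classes kept this order in both libraries. Gamma delta T-gated barcodes of library 1 reached 1572 CPM over 25 barcodes and could not be told from NK-gated ones. At the low end stood plasmacytoid dendritic-gated barcodes with 2 UMIs in each library (23.3 and 64.7 CPM) and melanoma-gated barcodes at 21.1 (19.7 to 22.6) and 16.4 CPM (15.4 to 17.4), which could not be told apart.

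CD8 T-gated over NK-gated, Ifngr1 had ratios of 0.262 (0.225 to 0.304) and 0.285 (0.202 to 0.412) and was called lower, where 2.69% of genes were called lower. Macrophage-gated over monocyte-gated, its ratios were 0.309 (0.264 to 0.363) and 0.277 (0.222 to 0.346), again called lower, where 5.29% of 5235 genes were. All T-gated barcodes stood 1.63 and 1.52 times as high as monocyte-gated ones, below the call. In library 1 CD8 T-gated barcodes, at 449 CPM, also stood below CD4 T-gated (942 CPM) and regulatory T-gated ones (653 CPM), neither of which held an Ifng UMI.

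The signalling chain gene Ifngr2 had another distribution, with its RNA in phagocytes and tumour cells and little in CD8 T cells. Monocyte-gated barcodes had 69.2 CPM (54.5 to 86.6) and 69.9 CPM (51.0 to 93.5), macrophage-gated ones 55.7 (46.0 to 66.9) and 45.4 CPM (36.3 to 56.1) and neutrophil-gated ones 82.9 (10 UMIs) and 41.7 CPM (4 UMIs). Melanoma-gated barcodes had 26.4 (24.9 to 28.1) and 23.5 CPM (22.4 to 24.8). CD8 T-gated barcodes had 2 and 4 Ifngr2 UMIs, at 2.20 (0.267 to 7.96) and 9.02 CPM (2.46 to 23.1). NK-gated barcodes had none, which allows up to 16.5 and 96.7 CPM, so that the NK level was not resolved in library 2.

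All T-gated over monocyte-gated, the Ifngr2 ratio was 0.0851 (0.0354 to 0.176) and 0.0918 (0.0240 to 0.252), although with 49 UMIs over both classes in library 2 it missed the minimum of 50 and was not called. With a minimum of 10 UMIs it was called lower, a setting at which the share of all genes called was not counted. Melanoma-gated over CD8 T-gated, Ifngr2 was 12.0 (3.31 to 99.1) and 2.61 (1.02 to 9.59) times as high and was the only member called higher there, where 16.5% of 11104 genes were called higher. The ratio rests on the 2 and 4 UMIs of CD8 T-gated barcodes. The other 6 members were called lower in melanoma-gated than in CD8 T-gated barcodes, where 8.86% of genes were, so the 2 receptor chains stood in opposite order between tumour cells and CD8 T cells.

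**Figure D2:**
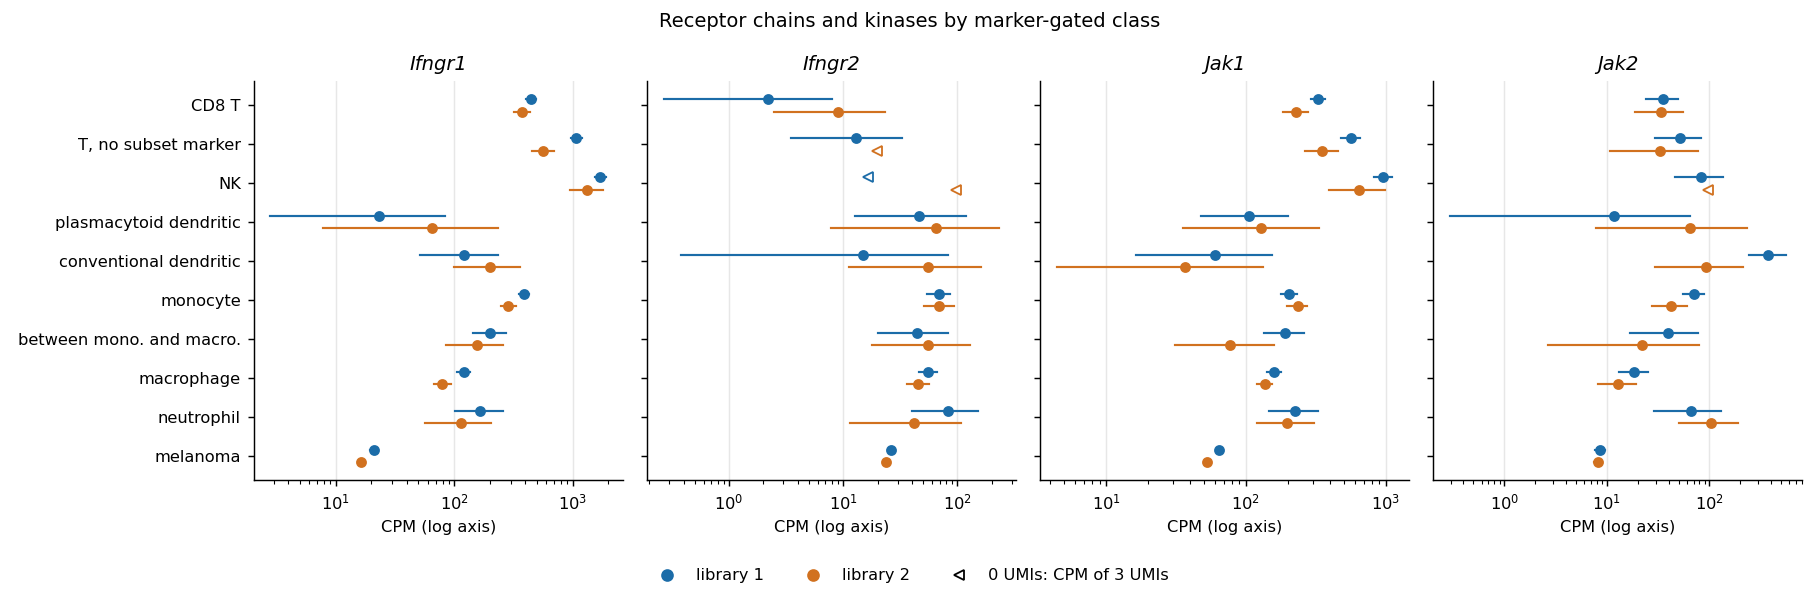
Levels of Ifngr1, Ifngr2, Jak1 and Jak2 (CPM, log axes, each panel with its own range) in 10 marker-gated classes of library 1 (blue) and library 2 (orange), with 95% counting intervals and open triangles at the CPM of 3 UMIs where none was seen. Ifngr1 and Jak1 are highest in NK-gated barcodes, at 1714 and 1322 CPM and at 965 and 645 CPM, whereas Ifngr2 is at 0 there.

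Jak1, the kinase gene of the IFNGR1 chain that many cytokine receptors also use, was found in every class with at least 20 barcodes, with the highest level in NK-gated ones. Levels there were 965 CPM (827 to 1119) and 645 CPM (394 to 996). They were 327 (291 to 367) and 228 CPM (186 to 277) in CD8 T-gated barcodes, 205 (179 to 233) and 234 CPM (199 to 275) in monocyte-gated, 159 (142 to 177) and 136 CPM (120 to 154) in macrophage-gated and 64.7 (62.2 to 67.2) and 53.1 CPM (51.3 to 54.9) in melanoma-gated barcodes. CD8 T-gated barcodes thus stood above monocyte- and macrophage-gated ones in library 1, while CD8 T-gated and monocyte-gated barcodes could not be told apart in library 2. Jak1 was called lower in CD8 T-gated than in NK-gated barcodes, at ratios of 0.339 (0.281 to 0.411) and 0.353 (0.217 to 0.603). It was also called lower in conventional dendritic-gated than in monocyte-gated barcodes, at 0.293 (0.0792 to 0.761) and 0.156 (0.0188 to 0.575), on 4 and 2 dendritic UMIs, where 16.6% of 1912 genes were called lower and 2.88% higher.

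Jak2, the kinase gene of the IFNGR2 chain, ranked first in conventional dendritic-gated barcodes of library 1 and in neutrophil-gated ones of library 2. It stood there at 375 CPM (243 to 554) from 25 UMIs in 18 of 27 barcodes, with at most 3 in any of them, and at 91.7 CPM (29.8 to 214) from 5 UMIs in 5 of 23 barcodes of library 2. Neutrophil-gated barcodes had 66.3 (28.6 to 131) and 104 CPM (50.03 to 192), and CD4 T-gated ones of library 1 had 139 CPM (38.0 to 357). The dendritic level could not be told from that of CD4 T-gated barcodes in library 1 or that of neutrophil-gated ones in library 2. Monocyte-gated barcodes had 70.1 (55.3 to 87.6) and 41.9 CPM (27.6 to 61.0), CD8 T-gated 35.3 and 33.8 CPM, macrophage-gated 18.4 (13.0 to 25.3) and 12.8 CPM (8.21 to 19.1) and melanoma-gated 8.54 and 8.14 CPM. Conventional dendritic cells present antigen to T cells, and their 9 markers summed to 4219 and 1724 CPM in the class, so the marker level also differed between libraries, and its part in the Jak2 difference was not tested. Dendritic over monocyte, the Jak2 ratio was 5.35 (3.27 to 8.50) and 2.19 (0.658 to 5.76). With 32 UMIs over both classes in library 2 it was not called at 50 UMIs and was called higher at 10. The share of all genes called at 10 UMIs was not counted. Macrophage-gated over monocyte-gated, Jak2 was called lower at 0.263 (0.173 to 0.392) and 0.306 (0.169 to 0.551).

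The early response gene Irf1 ranked highest in plasmacytoid dendritic- and monocyte-gated barcodes and lowest in melanoma. Plasmacytoid dendritic-gated barcodes had 431 CPM (304 to 594, 37 UMIs) and 162 CPM (52.5 to 377, 5 UMIs), and monocyte-gated barcodes had 303 (272 to 338) and 180 CPM (149 to 216). The 2 classes could not be told apart in either library. In library 2 the intervals of neutrophil-gated (87.6 to 258) and NK-gated barcodes (129 CPM, 35.1 to 330, 4 UMIs) overlapped those of both. Regulatory T-gated barcodes of library 1 had 169 CPM (94.5 to 279). Neutrophil-gated barcodes had 149 and 156 CPM, macrophage-gated 124 (109 to 140) and 53.9 CPM (43.9 to 65.6) and CD8 T-gated 51.8 (38.1 to 68.9) and 76.7 CPM (53.1 to 107). Macrophage-gated barcodes thus stood above CD8 T-gated ones in library 1, while in library 2 the intervals of these classes overlapped. Melanoma-gated barcodes had 9.15 (8.23 to 10.1) and 6.68 CPM (6.06 to 7.34).

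Irf1 was called lower in macrophage-gated than in monocyte-gated barcodes, at ratios of 0.409 (0.346 to 0.483) and 0.300 (0.227 to 0.395). It was also called lower in all T-gated over monocyte-gated barcodes, at 0.248 (0.196 to 0.310) and 0.445 (0.313 to 0.625), where 17.4% of genes were called lower. Dendritic-gated over monocyte-gated, its ratios were 0.248 (0.0799 to 0.584) and 0.204 (0.0244 to 0.752), on 5 and 2 dendritic UMIs, and it was called lower. T-gated barcodes, which held most Ifng UMIs, thus had less Irf1 RNA than monocyte-gated ones, which held none.

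The feedback inhibitor gene Socs1 was sparse, with its highest levels in T-gated barcodes without a subset marker at 57.9 CPM (34.3 to 91.6) and 72.9 CPM (36.4 to 130). CD8 T-gated barcodes had 24.3 (15.2 to 36.7) and 36.1 CPM (20.6 to 58.6), monocyte-gated 24.6 (16.2 to 35.8) and 17.1 CPM (8.52 to 30.6), macrophage-gated 5.33 and 7.48 CPM (11 and 14 UMIs) and melanoma-gated 1.39 (1.05 to 1.81) and 0.965 CPM (0.740 to 1.24). The intervals of CD8 T- and monocyte-gated barcodes overlapped in both libraries, and those of melanoma lay below all 4 of the others. Socs1 missed the minimum of 50 UMIs for all T-gated over monocyte-gated barcodes and for macrophage-gated over monocyte-gated ones in library 2, so it was not called in either.

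**Figure D3:**
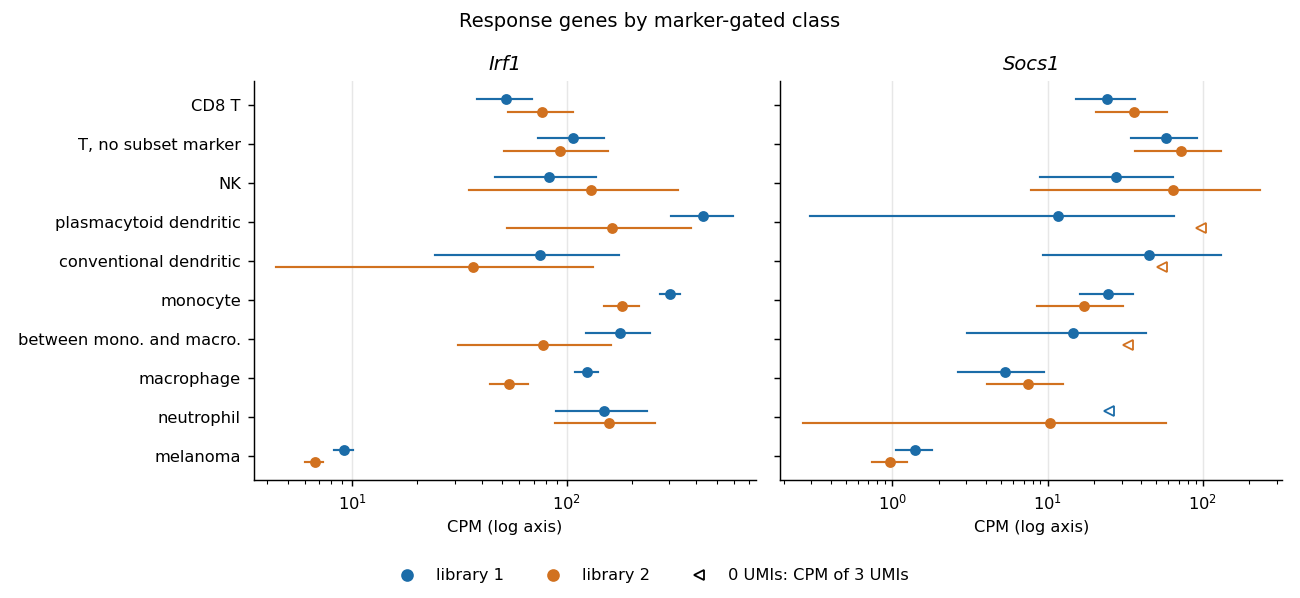
Levels of Irf1 and Socs1 (CPM, log axes with different ranges) in 10 marker-gated classes of library 1 (blue) and library 2 (orange), with 95% counting intervals and open triangles at the CPM of 3 UMIs where none was seen. Melanoma-gated barcodes stand lowest for Irf1, at 9.15 and 6.68 CPM, and monocyte-gated ones reach 303 and 180 CPM.

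By the same measure of likeness, the genes nearest to Irf1 were Pde4b, Msn, Trim30a, Btg2 and Slfn2, with r of 0.97, 0.96, 0.95, 0.94 and 0.94. The classes were the same as for Ifng, so plasmacytoid dendritic- and NK-gated barcodes did not enter r. Pde4b, which encodes a phosphodiesterase that breaks down cyclic AMP, stood at 240 and 182 CPM in monocyte-gated, 91.5 and 50.7 CPM in macrophage-gated and 10.6 and 7.21 CPM in melanoma-gated barcodes, in the same order as Irf1. The genes nearest to Socs1 were Cyld, Cd7, Zbtb4, Usp3 and Tyk2, with r of 0.94, 0.93, 0.93, 0.92 and 0.91. Tyk2 encodes another Janus kinase and Cd7 a T and NK cell surface protein. Cd7 stood at 96.6 and 139 CPM in T-gated barcodes without a subset marker, against 10.9 and 6.21 CPM in monocyte-gated and 0.152 and 0.234 CPM in melanoma-gated barcodes.

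As a share of the class's UMIs, every member that could be measured was lower in tumour cells than in monocytes. Melanoma-gated over monocyte-gated, Irf1 had ratios of 0.0302 (0.0259 to 0.0351) and 0.0371 (0.0301 to 0.0459), Ifngr1 0.0541 and 0.0570, Socs1 0.0565 in both libraries, Jak2 0.122 and 0.194, Jak1 0.316 and 0.227 and Ifngr2 0.382 (0.302 to 0.489) and 0.337 (0.251 to 0.464). All 6 members with at least 50 UMIs were called lower, where 12.8% of 11180 genes were called lower and 27.4% higher. Of these 6, Ifngr2 and Jak1 had the ratios nearest to 1 in both libraries. The median depth was 17944 and 11786.5 UMIs in melanoma-gated barcodes and 1840 and 1062 UMIs in monocyte-gated ones, so the order per barcode can differ from that per UMI. A Jak1 UMI was seen in 60.5% and 44.1% of melanoma-gated barcodes, against 31.7% and 22.8% of monocyte-gated ones, and an Ifngr2 UMI in 35.6% and 23.8% of melanoma-gated barcodes, against 12.1% and 7.76% of monocyte-gated ones. White blood cell RNA in melanoma-gated barcodes, read from Ptprc, was at 4.42 and 3.32 CPM against 857 and 528 CPM in monocyte-gated ones.

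**Figure D4:**
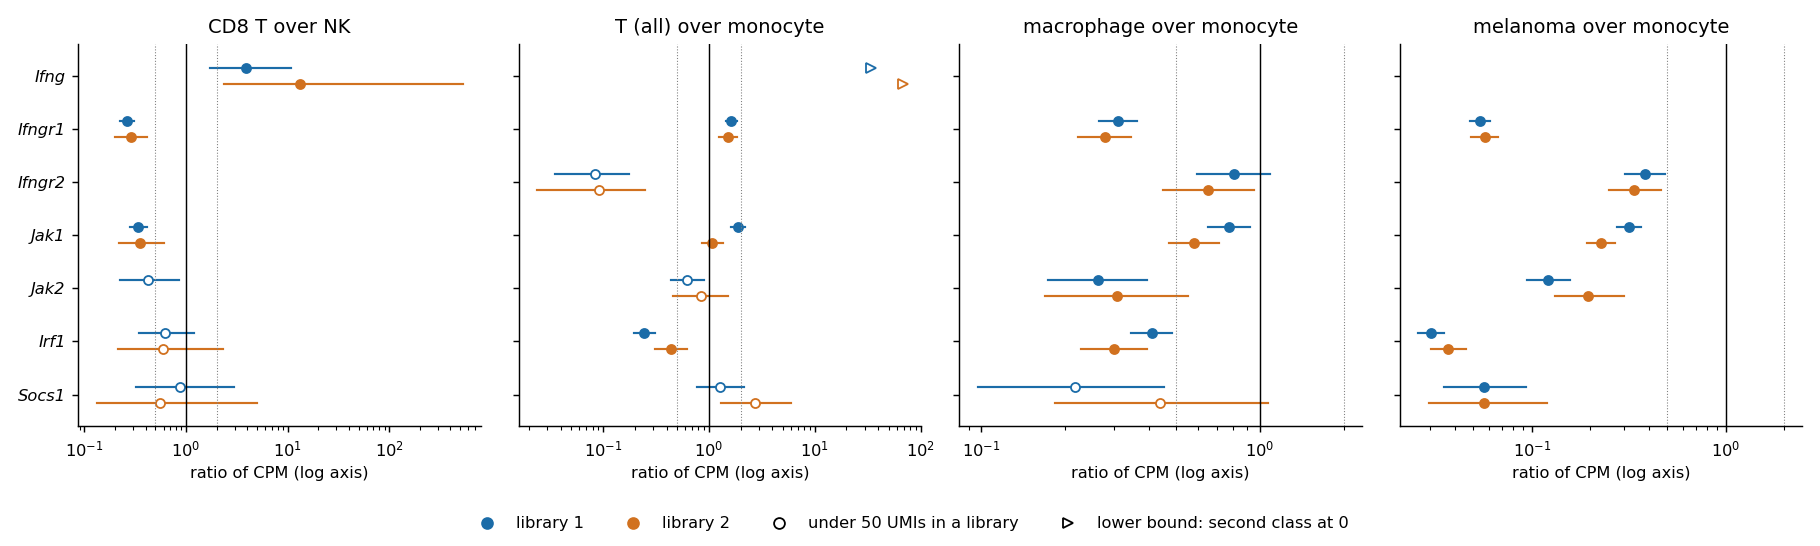
Ratio of CPM (log axes with different ranges) for each member in 4 pairs of classes, first class over second, in library 1 (blue) and library 2 (orange), with 95% counting intervals, open circles under 50 UMIs in a library, open triangles for lower bounds and dotted lines at ratios of 0.5 and 2. All 6 members measured in melanoma over monocyte lie left of 0.5, from 0.0302 to 0.382 in library 1.

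The wider pathway was read from 4 lists, of 16 other signalling genes and brakes, 25 targets, 16 inducers and factors of producing cells, and 6 genes of the neighbouring type I interferon pathway. Values of a class are given for library 1 and then library 2. In melanoma-gated over monocyte-gated barcodes, 21 of 21 measured targets were called lower, with median log2 ratios of -3.72 and -3.76, against 0.70 and 0.60 over all genes. Of all 11180 genes measured in this pair, 12.8% were called lower and 27.4% higher. Averaged over the libraries, the ratio nearest to 1 was that of Iigp1, an interferon-induced GTPase gene, with 9.70 and 3.91 CPM in melanoma-gated barcodes and 34.6 and 9.31 CPM in monocyte-gated ones. The lowest ratio was that of Gbp5, a guanylate-binding protein gene of host defence, with 0.455 and 0.265 CPM in melanoma-gated barcodes and 102 and 54.3 CPM in monocyte-gated ones. Of the signalling genes 12 of 15 were called lower and none higher. Ptpn11, which encodes the phosphatase SHP2, was not called, with 65.5 and 54.8 CPM in melanoma-gated barcodes and 50.1 and 55.9 CPM in monocyte-gated ones. All 6 measured producer genes and 3 of 5 type I genes were called lower. One of the type I genes was Irf7, with 1.69 and 1.53 CPM in melanoma-gated barcodes and 116 and 86.9 CPM in monocyte-gated ones.

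Between macrophage-gated and monocyte-gated barcodes, more targets were called lower than higher in macrophage-gated ones, and those called higher were no more than the background share. Of 14 measured, 1 was called higher and 4 lower in macrophage-gated barcodes, with median log2 ratios of -0.59 and -0.65, against 0.10 and 0.12 over all genes and backgrounds of 8.83% higher and 5.29% lower. Iigp1 was called higher, with 71.2 and 24.6 CPM in macrophage-gated barcodes and 34.6 and 9.31 CPM in monocyte-gated ones. Its ratio in library 2, 2.64 (1.12 to 7.56), rests on 6 monocyte UMIs. Gbp2 was called lower, with 353 and 111 CPM in macrophage-gated barcodes and 728 and 523 CPM in monocyte-gated ones. Zbp1, a nucleic acid sensor gene, was also called lower, with 61.5 and 34.2 CPM in macrophage-gated barcodes against 180 and 129 CPM in monocyte-gated ones. Cxcl9, which encodes a chemokine for CXCR3-bearing T cells, was not called, with 651 and 275 CPM in macrophage-gated barcodes and 496 and 189 CPM in monocyte-gated ones.

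Of 11 signalling genes 2 were called lower in macrophage-gated barcodes. These were the phosphatase gene Ptpn1, with 255 and 201 CPM in macrophage-gated barcodes and 573 and 458 CPM in monocyte-gated ones, and the inhibitor gene Socs3, with 111 and 63.6 CPM against 256 and 143 CPM in monocyte-gated ones. Of the 5 members measured in this pair 3 were called lower, as given above. The producer gene Runx3, 1 of 3 measured, and the type I gene Irf7, 1 of 5, were called lower too. The T cell markers summed to 138 and 24.6 CPM in macrophage-gated barcodes and to 32.8 and 12.4 CPM in monocyte-gated ones, and their part in these results was not tested.

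In all T-gated over monocyte-gated barcodes, 4 of 6 measured producer genes were called higher, and 5 of 12 targets, 3 of 9 signalling genes and 2 of 4 type I genes lower, against 10.6% of all genes called higher and 17.4% lower. The receptor gene Il18r1 for interleukin 18, a cytokine that induces Ifng, had 83.9 and 97.8 CPM in T-gated barcodes and 0.911 and 1.55 CPM in monocyte-gated ones. Il2rb, a receptor gene for interleukins 2 and 15, had 410 and 396 CPM in T-gated barcodes and 9.11 and 3.10 CPM in monocyte-gated ones. Among the targets, Cxcl10, which encodes another CXCR3 ligand, had 18.4 and 6.41 CPM in T-gated barcodes and 670 and 432 CPM in monocyte-gated ones. The proteasome gene Psmb9 was not called, with 116 and 93.0 CPM in T-gated barcodes and 67.4 and 40.4 CPM in monocyte-gated ones. Within this pair of classes, Cxcl10 thus stood higher in monocyte-gated barcodes, and the Ifng UMIs lay in T-gated ones.

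In CD8 T-gated over NK-gated barcodes, 1 of 4 measured producer genes and 1 of 3 signalling genes were called lower and none higher, against 2.69% of all genes called lower and 6.88% higher. Il18rap, of the interleukin 18 receptor, had 84.9 and 94.8 CPM in CD8 T-gated barcodes and 171 and 290 CPM in NK-gated ones. The transcription factor gene Irf8 had 347 and 214 CPM in CD8 T-gated barcodes and 1439 and 1386 CPM in NK-gated ones. None of the 4 measured targets was called, and the proteasome gene Psmb8 had 980 and 853 CPM in CD8 T-gated barcodes and 568 and 516 CPM in NK-gated ones.

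In melanoma-gated over CD8 T-gated barcodes, 15 of 20 measured targets were called lower and 1 higher, and 10 of 15 signalling genes lower, against 8.86% of all genes called lower and 16.5% higher. The target called higher was Cxcl10, with 50.9 and 31.8 CPM in melanoma-gated barcodes and 15.4 and 6.77 CPM in CD8 T-gated ones. Conventional dendritic-gated over monocyte-gated, 2 of 10 targets were called higher and 4 lower, against 2.88% of all genes called higher and 16.6% lower. Tap1, which encodes a peptide transporter of antigen presentation, was among those called higher, with 541 and 275 CPM in dendritic-gated barcodes and 188 and 132 CPM in monocyte-gated ones. Il12b, which encodes a chain of the Ifng-inducing cytokine interleukin 12, stood at 300.3 CPM (20 UMIs) and 422 CPM (23 UMIs) in dendritic-gated barcodes, against 0 UMIs in monocyte-gated ones of both libraries. It was chosen after its values were seen.

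A small range of melanoma-gated barcodes carried interferon-induced RNA, and their pooled Irf1 level was higher than that of the others. Each barcode was thinned to 2000 UMIs, and those with at least 2 UMIs over 10 interferon-induced genes (Iigp1, Igtp, Irgm1, Irgm2, Gbp2, Gbp3, Tgtp1, Tgtp2, Psmb9 and Tap1) were set apart. This gave 42 of 2122 barcodes in library 1 (1.98%) and 56 of 5138 in library 2 (1.09%). The range is a slice of a score and not a cell type. Of all barcodes used, 86 and 273 held exactly 1 such UMI and 13 and 33 exactly 2. In the thinned counts Irf1 had 6 UMIs in the barcodes with induced RNA and 19 in those without in library 1, and 5 and 52 in library 2, for ratios of 15.6 (5.11 to 40.7) and 8.73 (2.72 to 21.7). With the range set at 1 UMI the ratios were 7.33 and 3.50, and at 3 UMIs 22.8 and 12.4. Socs1 had 0 thinned UMIs with induced RNA in both libraries, and 5 and 16 without, so its level there was not resolved.

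From all UMIs of the same barcodes, a reading added after seeing the data, Irf1 stood at 130 CPM (107 to 156) with induced RNA and 6.40 CPM (5.62 to 7.25) without in library 1, and at 78.1 (57.8 to 103) and 5.95 CPM (5.36 to 6.58) in library 2. An Irf1 UMI was seen in 23 of 42 and 28 of 56 barcodes with induced RNA, and in 10.0% and 6.59% of those without. Socs1 stood at 11.4 (5.47 to 21.0) with and 1.17 CPM (0.850 to 1.56) without, and at 7.97 (2.59 to 18.6) and 0.836 CPM (0.626 to 1.09). These are ratios of 20.3 and 13.1 for Irf1 and of 9.79 (4.40 to 19.7) and 9.53 (2.97 to 23.7) for Socs1. The Socs1 levels with induced RNA rest on 10 UMIs in 6 of 42 barcodes of library 1. In library 2 they rest on 5 UMIs in 2 of 56 barcodes. Cd274, the gene of PD-L1, was 7.74 and 6.46 times as high with induced RNA. Cd274 had 33.1 and 25.5 CPM with induced RNA in libraries 1 and 2, and 4.27 and 3.94 CPM without. None of these 3 genes was among the 10 that made the range.

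The receptor genes did not follow. With induced RNA and without, Ifngr1 was at 21.7 and 21.0 CPM in library 1 and at 15.9 and 16.3 CPM in library 2, with ratios of 1.03 (0.617 to 1.62) and 0.978 (0.467 to 1.81). Ifngr2 had ratios of 1.13 (0.732 to 1.66) and 0.948 (0.517 to 1.60), and Jak1 0.754 (0.544 to 1.02) and 0.658 (0.412 to 0.997). Jak2 went opposite ways, at 0.531 (0.144 to 1.37) on 4 UMIs and 2.78 (1.51 to 4.70) on 14 UMIs. Ptprc had 10.3 and 3.19 CPM with induced RNA in libraries 1 and 2, and 4.30 and 3.33 CPM without. Its ratios were 2.39 (1.07 to 4.64), an interval above 1, and 0.957 (0.115 to 3.50). These rest on 9 and 2 Ptprc UMIs with induced RNA, and the part of white blood cell RNA in the Irf1 difference was not tested. The median depth before thinning was 20746 and 10094.5 UMIs with induced RNA, and 18194.5 and 11962.5 UMIs without. No Ifng UMI lay in the barcodes with induced RNA.

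**Figure D5:**
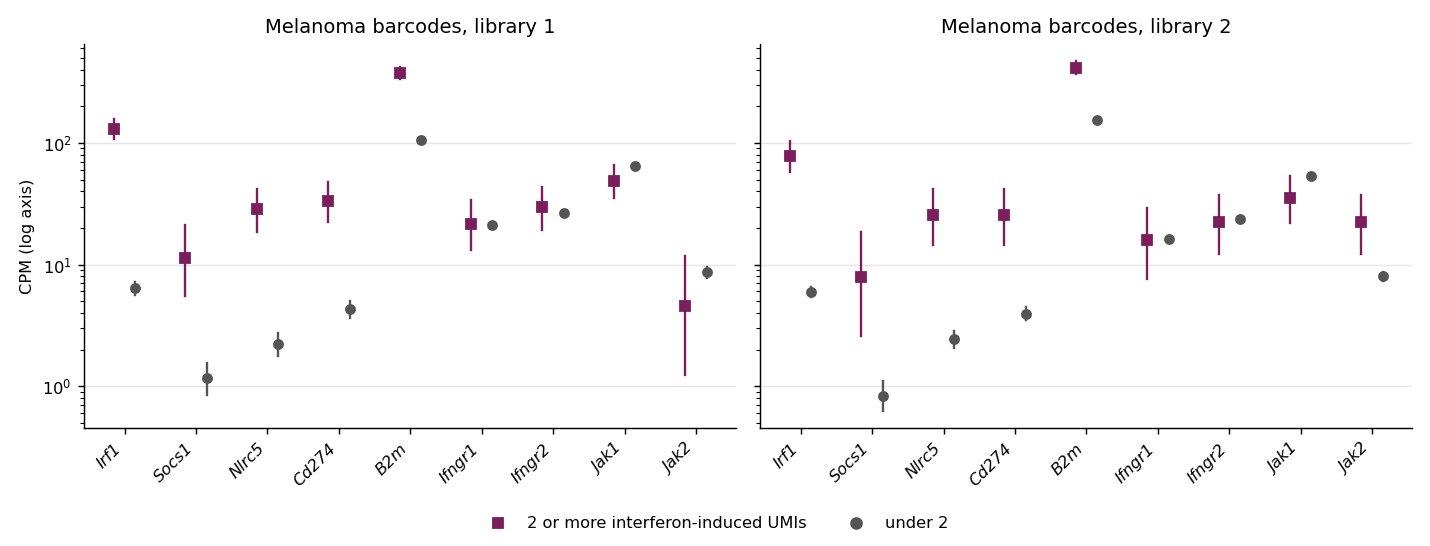
Levels (CPM, log axis) of 9 genes in melanoma-gated barcodes with at least 2 interferon-induced UMIs (squares) and with fewer (circles), from all UMIs, in library 1 (left) and library 2 (right), with 95% counting intervals. Irf1 stands at 130 and 78.1 CPM in the squares and at 6.40 and 5.95 CPM in the circles, while the squares and circles of Ifngr1 and Ifngr2 overlap.

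Side by side, the 2 libraries were at least 2 times apart, on 50 or more UMIs, for Ifng in CD8 T-gated and in all T-gated barcodes and for Irf1 in macrophage-gated ones, and in opposite directions. Ifng in CD8 T-gated barcodes was at 129 CPM in library 1 and 429 CPM in library 2, a ratio of 0.301 (0.237 to 0.381). In this class 1.36% of 3390 genes were at least 2 times lower in library 1 and 2.39% at least 2 times higher. Without the barcode with most Ifng UMIs in each library, a reading added after seeing the data, the levels were 98.6 and 279 CPM and the ratio 0.354. As a mean over barcodes the ratio was 0.416. The share of barcodes with an Ifng UMI did not show this difference, at 12.1% (8.794% to 16.002%) in library 1 and 9.91% (6.39% to 14.5%) in library 2. The CPM difference thus lay in the number of molecules in a few barcodes.

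Irf1 in macrophage-gated barcodes was at 124 CPM in library 1 and 53.9 CPM in library 2, a ratio of 2.30 (1.82 to 2.92), in a class where 2.05% of 6722 genes stood that far above library 2 and 1.15% that far below it. In monocyte-gated barcodes, where these shares were 2.63% and 1.45%, its ratio was 1.68 (1.36 to 2.10), in melanoma-gated 1.37 from 9.15 and 6.68 CPM, and in CD8 T-gated 0.675 (0.425 to 1.08), an interval that holds 1. Ifngr1 had a ratio of 1.36 (1.14 to 1.62) in monocyte-gated and 1.52 (1.23 to 1.87) in macrophage-gated barcodes, and Ifngr2 of 0.991 (0.676 to 1.47) and 1.23 (0.919 to 1.64). The median log2 ratio over all measured genes lay between -0.09 and 0.09 in the 11 classes compared. The red cell markers in macrophage-gated barcodes summed to 1271 CPM in library 1 and 53.4 CPM in library 2, the T cell markers to 138 and 24.6 CPM, and the median depth was 3597 and 2446.5 UMIs, and the part of these in the Irf1 ratio was not tested. Melanoma RNA stood at 2.22% and 6.85% of its melanoma level there, and with it subtracted the Irf1 ratio was 2.21. Since neither library is tied to a genotype, these values describe 2 pools of 5 tumours each.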

How the data were processed

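Droplet 3′ single-cell RNA of 2 libraries was read from 1 matrix of 18252 barcodes. Per the submitters' processing notes Cell Ranger and mm10 were used, and the software version in the file header is 3.0.2. The deposited values are UMI counts, not normalised by the authors. Whether depth was equalised is not stated in the labels.

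A barcode was retained with 500 or more UMIs, 200 or more genes and no more than 10% mitochondrial UMIs. Copies across libraries were left out. Melanoma-gated barcodes had at least 30 melanoma-marker and under 10 white blood cell-marker UMIs per 10000. An immune class needed 2 UMIs of its markers and 3 times the next lineage, or 2 times among monocyte, macrophage and neutrophil. No doublet caller was run, and barcodes with markers of 2 lineages joined no class. The thresholds of the gates were set after the data were seen. The members, lists and tests were chosen with earlier results of these data known.

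Summed UMIs gave CPM. The 95% intervals are exact Poisson for levels, Clopper-Pearson for shares and conditional binomial for ratios, and cover only counting error. A count of 0 was set at 3 counts as its limit. Named genes were the members, the 5 genes nearest to Ifng, Irf1 and Socs1, and the 2 highest and 2 lowest of each list, and others named in the text were chosen after their values were seen. Genes carrying any of 35 repeated symbols were left out. Simulated counts with known ratios were used to test the code. Alternatives were other depth and mitochondrial filters, copies kept, a stricter gate, means over barcodes, melanoma RNA subtracted, thinning, other minimum UMIs and other splits. Python 3.11.15, numpy 2.4.6, scipy 1.17.1, pandas 2.3.3 and matplotlib 3.10.9 were used. Some items of the lists are not reported here.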

Additional observations from a re-analysis of the deposited data

Results flagged for a closer look

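Ifng UMIs were also found in barcodes that belong to no class of the report, which is a signal outside the main measurement. Retained barcodes that were neither melanoma-gated nor immune-gated held 33 Ifng UMIs in library 1 and 7 in library 2. Of the 33, 30 lay in 1 barcode of library 1 with 26812 UMIs, which also held 214 melanoma-marker, 25 T cell-marker and 27 white blood cell-marker UMIs. Immune-gated barcodes with too few marker UMIs for a class held 8 in library 1, and immune-gated barcodes with markers of 2 lineages held 4 in library 2. Barcodes that were not retained held 12 in library 2.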

How the results depend on the processing

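No paired analysis was possible because each genotype has 1 library and the labels carry no replicate numbers. None of the called ratios reversed direction where both classes kept a UMI. Levels, and ratios that were not called, could only be scored as stayed or moved. Of 996 class levels of members under 6 alternatives, 957 stayed within their own interval and 39 moved, and of 344 log2 ratios 330 stayed and 14 moved.

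The Ifng level in CD8 T-gated barcodes of library 1 was 98.6 CPM without its highest barcode, against 129 CPM, and that of library 2 was 279 CPM without it and 305 CPM as a mean over barcodes, against 429 CPM. The share of Ifng UMIs in CD8 T-gated barcodes was 74.0% in library 1 with at least 1000 UMIs per barcode and 90.0% after thinning, against 65.7%. In library 2 it was 65.1% with the stricter gate, 89.2% after thinning and 73.2% without the highest barcode, against 80.9%. With at least 1000 UMIs per barcode, 0 members were called higher in CD8 T-gated over NK-gated barcodes, against 1. With a minimum of 10 UMIs per gene, 1 member was called lower in CD8 T- over CD4 T-gated barcodes against 0, 2 lower in all T- over monocyte-gated against 1, and 1 higher in conventional dendritic- over monocyte-gated against 0. The share of all genes called under these alternatives was not counted, so these member counts have no background beside them. Library 1 over library 2, the Ifng ratio in CD8 T-gated barcodes was 0.416 as a mean over barcodes, against 0.301. The Irf1 ratio in melanoma-gated barcodes was 1.14, against 1.37, and the Ifngr1 ratio in monocyte-gated barcodes was 1.63 with at least 1000 UMIs, against 1.36. Causes were not tested. Depth limits the CD4 T, regulatory T, gamma delta T and dendritic classes, with 4 to 54 barcodes each, and the B and NK classes of library 2, with 4 and 36 barcodes.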
